A study of Homo sapiens with 12 samples.

Results

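Hep3B is an established human hepatocellular carcinoma line that keeps a liver-like secretory programme. The comparison described here is of Hep3B cells carrying a hairpin against SLC6A8 (shSLC6A8, 3 libraries) with Hep3B cells carrying a control hairpin (shNC, 3 libraries), which makes 6 of the 12 libraries of the series. Every one of the 6 libraries came from cells held in hypoxia for 24 hours, so both hairpin groups share the low oxygen and no normoxic library enters the comparison. The libraries were chosen by their line and hairpin labels alone. The labels name 1 hairpin for each group, so the loss of SLC6A8 and any other action of that hairpin cannot be told apart. Nothing in the labels tells separate cultures from repeat preparations; the p-values therefore rest on a spread among libraries that may be technical.

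SLC6A8 is the plasma membrane transporter that brings creatine into the cell with sodium and chloride. Inside, creatine kinases convert creatine to phosphocreatine, a mobile store of high-energy phosphate. Hepatocytes are known for making and secreting most plasma proteins, and under hypoxia the transcription factors HIF1 and HIF2 are stabilised and raise genes for glycolysis, blood vessel growth and secreted stress hormones. Per its title, the study asks what the transporter, raised by hypoxia, does in liver cancer.

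The transporter itself was measured first. The gene SLC6A8 (ENSG00000130821, chromosome X, 153687926 to 153696593, RefSeq position on GRCh38.p14) stood at 362, 378 and 371 CPM in shNC and 34.6, 33.9 and 35.1 CPM in shSLC6A8, where CPM is the TMM-scaled count per 1000000 counts. It fell by 3.42 ± 0.05 on the log2 scale (± SE, n = 3 per group, as for all log2 fold changes here; edgeR quasi-likelihood test, Benjamini-Hochberg adjusted p = 2.13e-10), and the groups did not overlap. SLC6A10P, a pseudogene copy of the transporter named here after its values were seen, fell from 1.39 to 0.452 CPM (adjusted p = 0.0142), and how the counting divided reads between the copies is not given in the sources used here. On the per-length TPM scale the liver markers were present, with ALB at 8424 to 10681 and HNF4A at 77.5 to 102.3 over the 6 libraries. The 10 liver markers took 2.75% to 2.83% of the counts in shNC and 1.81% to 1.89% in shSLC6A8. Of them 6 fell and 2 rose (4 and 4 with library totals), the rises being AFP (0.22 ± 0.06) and TTR (0.33 ± 0.07); the call of AFP ended without shNC replicate 1, shNC replicate 2 or shSLC6A8 replicate 1. Of 15 markers of other cells, VWF, CDH5 and DES were at 0 in every library, CD68 went from 51.4 to 56.2 TPM in shNC to 21.8 to 23.8 TPM in shSLC6A8, and the epithelial markers EPCAM and KRT19 were at 434 TPM and 217 TPM or more. The summed share of these 15 genes in the counts was 0.0861% to 0.0898% in shNC and 0.0944% to 0.103% in shSLC6A8. Of the 8 tested, though, 1 rose and 3 fell (2 and 3 with library totals). KRT19 was at 217 to 239 TPM in shNC and 297 to 315 TPM in shSLC6A8. EPCAM was at 434 to 446 TPM in shNC and 468 to 525 TPM in shSLC6A8. The part of these 15 genes in the results was not tested.

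The response to the hairpin reached 40.1% of the genes tested, 6488 of 16181, at an adjusted p under 0.05. Of all genes tested, 18.9% were higher (3061) and 21.2% were lower (3427). A change of 1 or more on the log2 scale was seen in 507 higher genes (3.13%) and 600 lower genes (3.71%). Library totals were 21065965 to 23237892 estimated counts in shNC and 24201940 to 27445278 in shSLC6A8, and the first principal component, which held 61.8% of the variance, separated the hairpins. Depth and hairpin thus moved together, and after thinning every library to the smallest total 3003 genes were higher and 3361 lower. Scaling mattered more than depth. The median log2 fold change of all genes was 0.01 with TMM factors and 0.20 with plain library totals, under which 6230 genes were higher and 1941 lower. Values in parentheses after a family's counts or median are therefore the same quantity under library totals. Counts of a family are to be read beside the 18.9% higher and 21.2% lower of all genes tested.

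Changes also ran with level, as the plot of change against level shows. In the lowest quintile of mean level, 11.7% of genes were higher and 7.66% lower, with a median log2 fold change of 0.14. In the highest quintile, 18.1% were higher and 37.6% lower, with a median of -0.08. The order of the quintile medians was the same under library totals, from 0.33 in the lowest to 0.11 in the highest, but the sign in the highest quintile turned.

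**Figure D1:**
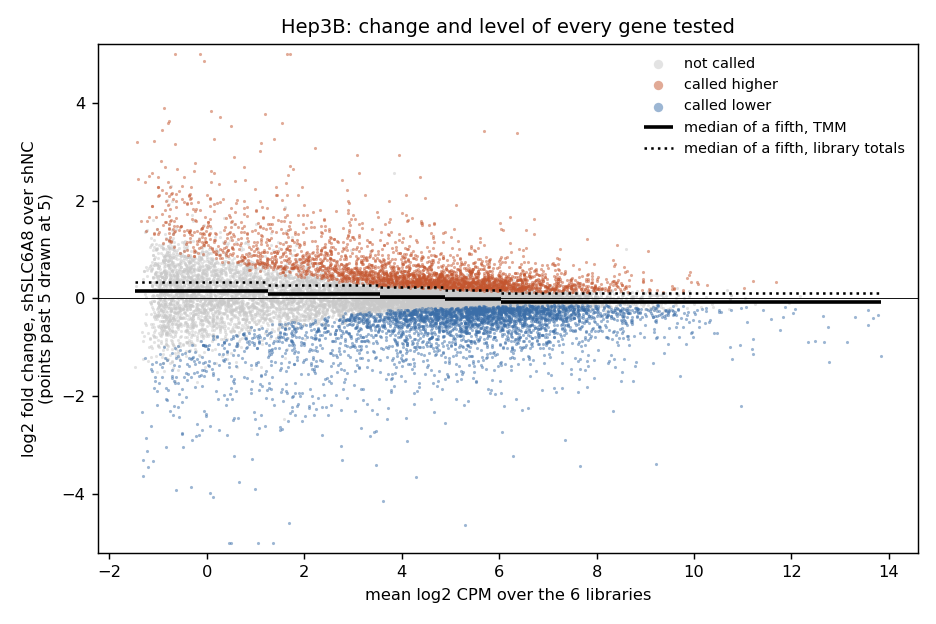
Each point is a gene tested in Hep3B, with its mean log2 CPM over the 6 libraries on the horizontal axis and its log2 fold change (shSLC6A8 over shNC) on the vertical axis; points past 5 are drawn at 5. Bars mark the median of each quintile of level, which runs from 0.14 to -0.08 with TMM factors (solid) and from 0.33 to 0.11 with library totals (dotted).

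The most abundant transcripts carried less of the library after knockdown. The 10 genes with the most counts took 11.8% to 12% of each shNC library and 8.82% to 9.07% of each shSLC6A8 library. Genes with a secreted GO term took 14.7% to 15% against 12.8% to 13.2%, and genes of the mitochondrial chromosome 7.65% to 7.77% against 6.15% to 6.25%. Genes with a transcription factor GO term moved the other way, from 3.35% to 3.53% up to 3.70% to 3.99%. In none of these did the groups overlap, and an exact two-sided permutation test gave p = 0.1 for each, the smallest that 3 against 3 libraries allow. In bulk RNA, fewer cells that make a product and less of its RNA per cell cannot be told apart.

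The genes that lost or gained the most CPM show where those reads lay. Transferrin (TF), the plasma iron carrier, was at 9591, 10033 and 10028 CPM in shNC and 4078, 3884 and 4139 CPM in shSLC6A8, a fall of 1.29 ± 0.05 on the log2 scale. The 16S rRNA of the mitochondrial ribosome, MT-RNR2, stood at 20073, 20255 and 20502 CPM in shNC and 8847, 8858 and 9299 CPM in shSLC6A8, with a log2 fold change of -1.17 ± 0.05. Albumin (ALB) fell by 0.55 ± 0.05, the glycolytic enzyme GAPDH by 0.88 ± 0.06 and beta-actin (ACTB) by 0.90 ± 0.05. The fetal growth factor IGF2 fell by 0.89 ± 0.06 and its readthrough form INS-IGF2 by 0.90 ± 0.05; the pair overlap on chromosome 11, so reads of the 2 records may be shared. The respiratory chain transcripts MT-ND4 (-0.40 ± 0.05) and MT-CO1 (-0.34 ± 0.05) and the small RNA record ENSG00000275661 (-0.58 ± 0.06) complete the 10 largest losses. Among the largest gains were surface and actin genes. SDC4, a heparan sulfate proteoglycan of the cell surface, rose from 363 ± 1.72 to 707 ± 13.7 CPM (mean ± SD, n = 3), a log2 fold change of 0.96 ± 0.05, and the actin-bundling protein FSCN1 rose from 217 ± 7.73 to 466 ± 11.7 CPM (1.10 ± 0.05). The other large gains were in ALDH1A1 (0.55), a retinaldehyde dehydrogenase, APOE (0.36), a lipoprotein component, FTH1 (0.33), the ferritin heavy chain, the chaperones HSPA8 (0.33) and HSP90AA1 (0.28), TMSB10 (0.43), which binds actin monomers, MT-CO3 (0.21) of the respiratory chain, and the long non-coding record ENSG00000280614 (0.48), all log2 fold changes. The calls of FTH1, MT-CO3 and ENSG00000280614 ended in some fits that leave out 1 library: FTH1 without shNC replicate 1 or shNC replicate 2, MT-CO3 without shNC replicate 1, shNC replicate 2, shSLC6A8 replicate 1 or shSLC6A8 replicate 3, and ENSG00000280614 without shNC replicate 3, shSLC6A8 replicate 2 or shSLC6A8 replicate 3.

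**Figure D2:**
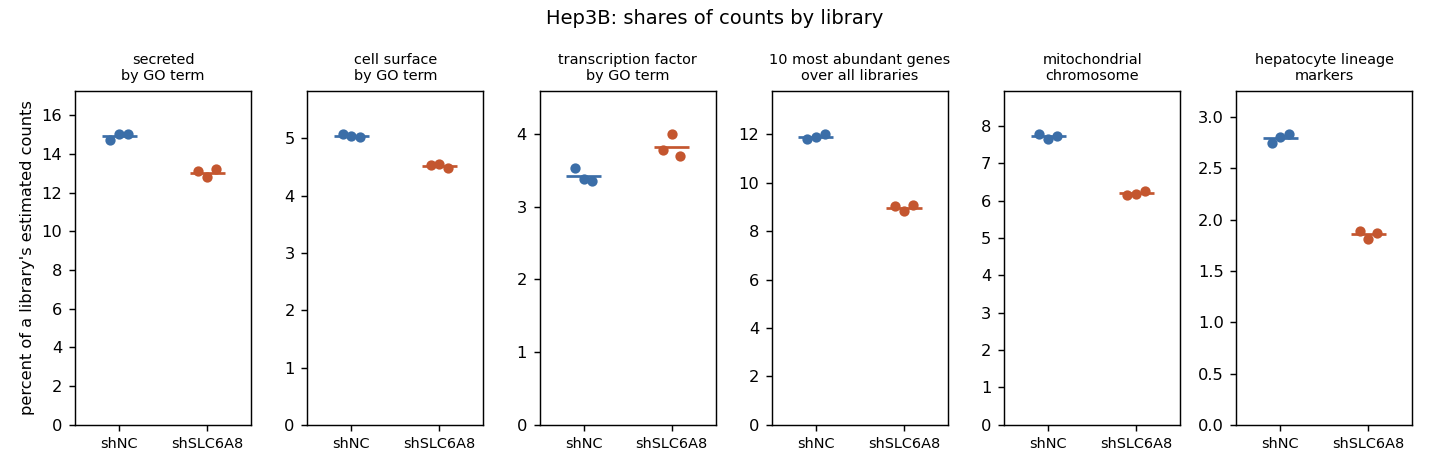
Percent of each library's estimated counts taken by 6 sets of genes, with 1 point per library and a bar at the mean of each hairpin group; every vertical axis starts at 0. In each panel the 3 shSLC6A8 points lie apart from the 3 shNC points, below them except for genes with a transcription factor GO term.

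Promoter sequence is given for 4 genes, chosen after their values were seen because they changed in opposite directions: ANKRD37 and BHLHE40, which fell, and TXNIP and ID3, which rose. ANKRD37 and BHLHE40 are well-known hypoxia-induced genes, the former an ankyrin-repeat protein and the latter a bHLH repressor of the circadian and differentiation programmes. TXNIP is an arrestin-like protein that binds thioredoxin and restrains glucose uptake, and ID3 is a dominant-negative HLH protein. The 250 bases before each RefSeq gene start (GRCh38.p14) are given 5′ to 3′ on the gene's strand. Capitals mark ACGTG and its reverse complement CACGT. The core of the hypoxia response element is A or G followed by CGTG, so ACGTG is only 1 form of it. The palindrome CACGTG holds both marked strings and is counted on both strands. The form GCGTG was not searched.
ANKRD37 (chr4:185396591-185396840, plus strand): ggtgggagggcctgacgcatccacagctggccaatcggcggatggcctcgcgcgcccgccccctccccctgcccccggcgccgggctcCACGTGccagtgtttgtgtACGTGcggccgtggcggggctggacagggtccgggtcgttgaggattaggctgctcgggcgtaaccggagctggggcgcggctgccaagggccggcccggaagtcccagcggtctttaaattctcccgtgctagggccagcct
BHLHE40 (chr3:4979187-4979436, plus strand): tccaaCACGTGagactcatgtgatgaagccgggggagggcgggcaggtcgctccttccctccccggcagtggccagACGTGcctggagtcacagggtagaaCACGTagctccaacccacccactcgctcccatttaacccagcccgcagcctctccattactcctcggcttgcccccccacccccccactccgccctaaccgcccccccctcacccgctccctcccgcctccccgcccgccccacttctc
TXNIP (chr1:145996580-145996829, minus strand): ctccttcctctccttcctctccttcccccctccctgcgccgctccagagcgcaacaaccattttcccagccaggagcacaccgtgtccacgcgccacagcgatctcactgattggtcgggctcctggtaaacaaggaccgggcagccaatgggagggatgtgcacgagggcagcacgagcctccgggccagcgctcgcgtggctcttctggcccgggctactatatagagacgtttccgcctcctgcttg
ID3 (chr1:23559502-23559751, minus strand): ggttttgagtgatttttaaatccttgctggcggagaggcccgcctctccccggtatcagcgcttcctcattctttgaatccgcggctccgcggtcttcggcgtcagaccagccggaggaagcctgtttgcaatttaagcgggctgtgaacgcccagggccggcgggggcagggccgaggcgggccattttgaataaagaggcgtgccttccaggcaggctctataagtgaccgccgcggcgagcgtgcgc
ANKRD37 held 3 matches to ACGTG and BHLHE40 held 4, while TXNIP and ID3 held 0 in this window. The form GCGTG, which was not counted, does occur in the printed TXNIP and ID3 windows, so they are not free of the core. Over all 35116 RefSeq promoters of the same length, 18.5% held at least 1 match. Of the genes tested, 10247 matched a promoter by gene number and 23.1% of these held the motif. The share was 21.6% among genes lower by 1 or more on the log2 scale, 16.1% among genes higher by 1 or more and 22.9% among genes not called. Among all genes called lower it was 25.8%, and among all called higher 20.4%; these shares were not tested against each other. A match describes letters in a window and is not a binding site.

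ANKRD37 (ENSG00000186352, chromosome 4, 185396841 to 185400723) was at 17.2, 20.5 and 17.2 CPM in shNC and 1.98, 2.45 and 3.43 CPM in shSLC6A8, and BHLHE40 (ENSG00000134107, chromosome 3, 4979437 to 4985323) at 159, 163 and 158 CPM in shNC and 35.3, 32.2 and 34.1 CPM in shSLC6A8. They fell by 2.81 ± 0.17 (adjusted p = 1.22e-06) and 2.24 ± 0.05 (adjusted p = 4.42e-09) on the log2 scale, and no knockdown library reached the lowest control. TXNIP (ENSG00000265972, chromosome 1, 145992435 to 145996579) was at 15.7, 13.5 and 13.5 CPM in shNC and 148, 148 and 153 CPM in shSLC6A8, a rise of 3.39 ± 0.07 (adjusted p = 2.21e-09). ID3 (ENSG00000117318, chromosome 1, 23557926 to 23559501) was at 31.9, 31.0 and 36.2 CPM in shNC and 101, 85.7 and 102 CPM in shSLC6A8, a rise of 1.54 ± 0.09 (adjusted p = 6.36e-07). The alpha-tubulin TUBA1A, a major tubulin of growing neurons, rose about as far as TXNIP in log2 terms (3.42 ± 0.08), with 8.67, 8.13 and 9.21 CPM in shNC and 96.8, 84.7 and 97.2 CPM in shSLC6A8; alpha-tubulin genes are near-identical in their coding parts, so its reads may be shared with its paralogs.

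**Figure D3:**
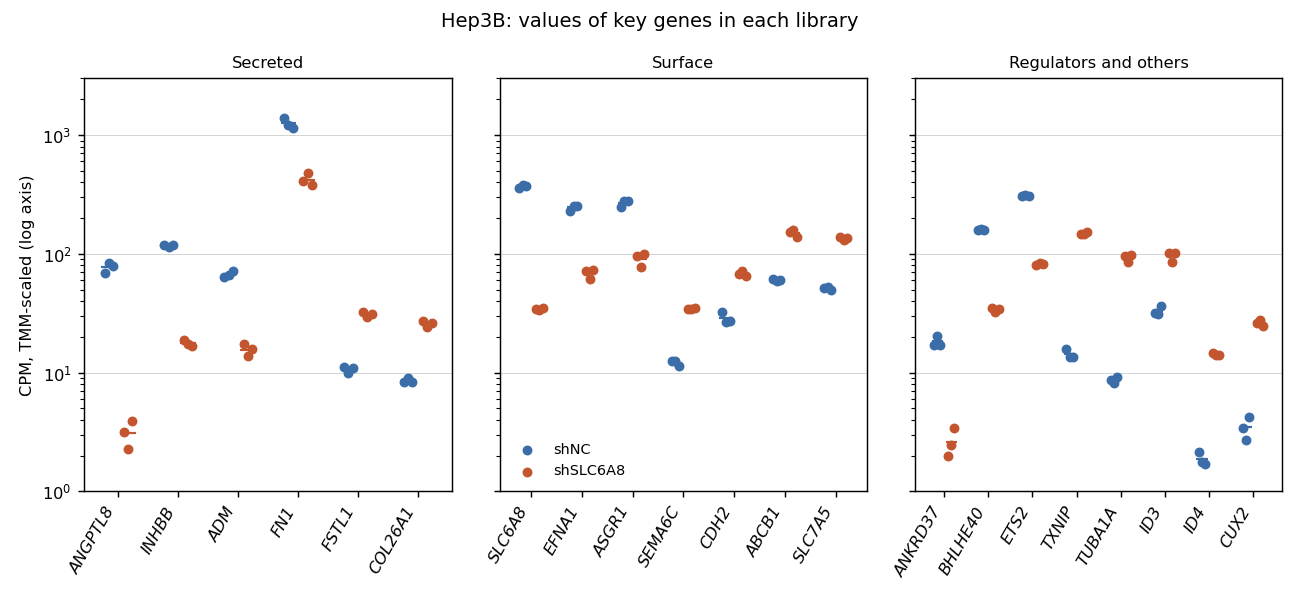
TMM-scaled CPM (log axis) of 21 genes in each Hep3B library, grouped as secreted products, surface products, and regulators and others, with 3 points and a mean bar per hairpin. In every gene drawn the 3 shSLC6A8 points lie wholly above or wholly below the 3 shNC points. Apart from SLC6A8, genes were named only where the groups did not overlap, so this separation follows from their choice.

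Secreted products changed in both directions. Of the 984 genes tested with a secreted GO term, 210 rose and 314 fell (364 and 224 with library totals), so the balance turned with the scaling. ANGPTL8, a liver hormone that restrains lipoprotein lipase, was at 69.5, 84.2 and 78.7 CPM in shNC and 3.17, 2.25 and 3.93 CPM in shSLC6A8 and fell by 4.63 ± 0.15 on the log2 scale (adjusted p = 2.45e-08). PTGDS, which makes prostaglandin D2 and is secreted as a lipocalin, fell from 24.0 ± 1.10 to 1.36 ± 0.348 CPM. IGFBP1, a binding protein of insulin-like growth factors that hypoxia raises in liver, fell from 12.9 ± 0.390 to 1.31 ± 0.399 CPM.

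Serpins, most of them protease inhibitors, fell more often than they rose: of 19 tested, 4 rose and 10 fell (5 and 9 with library totals), with a median log2 fold change of -0.27 (-0.08). Their median level lay in the highest quintile, where 37.6% of all genes were lower, against 52.6% of the serpins. SERPINE2, which inhibits thrombin and plasminogen activators, fell by 1.86 ± 0.09, SERPINA1, the inhibitor of neutrophil elastase, by 1.13 ± 0.06 and SERPIND1, heparin cofactor II, by 0.64 ± 0.05. SERPINI1, the neuronal serpin, went the other way with a rise of 0.91 ± 0.06, as did SERPINA3 (0.48 ± 0.08), an acute-phase inhibitor of chymotrypsin-like proteases. Transmembrane and kallikrein-type serine proteases also fell more often than they rose: of 15 tested, 2 rose and 9 fell (4 and 8 with library totals), with a median of -0.51 (-0.32). PRSS22 fell by 2.10 ± 0.23, TMPRSS6, which limits hepcidin by cleaving hemojuvelin, by 1.08 ± 0.07, and hepsin (HPN), a liver surface protease, by 1.27 ± 0.06. TMPRSS2, which rose by 0.36 ± 0.09, was an exception. In the ADAM and ADAMTS metalloproteases the balance turned with the scaling, since of 24 tested, 4 rose and 10 fell (7 and 3 with library totals); ADAM8, a sheddase of leukocytes and tumours, fell by 0.84 ± 0.06.

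Peptide hormones fell more often than they rose: of 24 tested, 2 rose and 8 fell (3 and 7 with library totals), with a median of -0.19 (-0.00). ADM, adrenomedullin, a vasodilator raised by hypoxia, was at 63.4, 66.3 and 71.1 CPM in shNC and 17.3, 13.8 and 15.9 CPM in shSLC6A8 and fell by 2.09 ± 0.09. NPPB, the precursor of B-type natriuretic peptide, fell from 15.4 ± 0.637 to 3.65 ± 0.133 CPM, and angiotensinogen (AGT), the liver-made precursor of angiotensin, from 557 ± 20.9 to 173 ± 2.73 CPM. STC2, stanniocalcin 2, a stress-raised glycoprotein hormone, fell by 1.41 ± 0.06. FNDC5, the precursor of irisin, rose by 0.92 ± 0.17 from a low level of 1.94 CPM. Of the 5 hormone genes named here, FNDC5 alone rose, but genes were named by their calls and 2 of the 24 tested rose.

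TGF-beta family ligands and antagonists changed in both directions: of 25 tested, 7 rose and 6 fell (12 and 5 with library totals). INHBB, the beta-B subunit of activin and inhibin, was at 118, 114 and 119.7 CPM in shNC and 18.8, 17.3 and 16.8 CPM in shSLC6A8 and fell by 2.73 ± 0.06 (adjusted p = 3.9e-09). INHBE, the liver-made beta-E subunit, fell by 1.46 ± 0.04, INHA by 0.79 ± 0.13 and GDF15, a stress cytokine that acts on appetite through the hindbrain, by 1.26 ± 0.08. The ligand GDF11 rose by 0.93 ± 0.07 and BMP2 by 0.40 ± 0.08, and so did the follistatin-like proteins FSTL1 (1.55 ± 0.08) and FSTL3 (0.79 ± 0.07), the latter an antagonist of activins. The inhibin and activin subunits named here fell and the named follistatin-like genes rose. They were named because they were called in these data, so their directions do not speak for members that are not named. Among interleukins and TNF ligands, of 25 tested, 4 rose and 7 fell (10 and 6 with library totals): LIF fell by 1.85 ± 0.26 and TNFSF4, the ligand of OX40, by 1.84 ± 0.11, while KITLG, the ligand of KIT, rose by 1.02 ± 0.20 and TNFSF10, the death ligand TRAIL, by 0.57 ± 0.15; the call of TNFSF10 ended without shNC replicate 2 or shSLC6A8 replicate 1. The count of rises in that list became 1 without shNC replicate 2 or shSLC6A8 replicate 1.

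Matrix genes did not share a direction. Of 20 collagens tested, 6 rose and 6 fell (9 and 5 with library totals), and of 36 laminins and basement membrane partners, 13 rose and 12 fell (16 and 9). Fibronectin (FN1) was at 1397, 1228 and 1157 CPM in shNC and 407, 480.4 and 379 CPM in shSLC6A8 and fell by 1.58 ± 0.10. LAMB3, the beta-3 chain of laminin-332, fell by 1.78 ± 0.12, and the collagens COL8A2 and COL9A3 by 1.73 ± 0.15 and 0.94 ± 0.06. COL26A1 rose from 8.53 ± 0.371 to 25.8 ± 1.42 CPM, and COL2A1, the cartilage collagen, rose by 2.28 ± 0.28 from 0.840 CPM. FBN1, which builds elastic microfibrils, rose by 1.19 ± 0.13, FBLN5 by 0.94 ± 0.14 and LTBP1, which tethers latent TGF-beta to microfibrils, by 0.74 ± 0.10. The small leucine-rich proteoglycan biglycan (BGN) fell from 31.4 ± 0.847 to 4.16 ± 0.361 CPM. At the cell surface, SDC2 fell by 0.96 ± 0.05, while the glypicans GPC2 (1.79 ± 0.13), GPC4 (0.91 ± 0.08) and GPC5 (0.96 ± 0.08) rose with SDC4.

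Several Wnt receptors rose and some inhibitors of the pathway fell. Of 29 genes tested, 11 rose and 8 fell (14 and 7), with a median of 0.19 (0.38). The frizzled receptors FZD4, FZD7 and FZD8 rose by 1.52 ± 0.09, 1.2 ± 0.09 and 1.02 ± 0.13, LGR4, a receptor of R-spondins, by 0.62 ± 0.07, and WLS, which carries Wnts to the surface, by 0.75 ± 0.07. The secreted inhibitors DKK1 and NOTUM fell by 0.80 ± 0.05 and 1.26 ± 0.11, and the co-receptors LRP5 and RYK by 0.78 ± 0.05 and 1.29 ± 0.08. KREMEN2, a DKK receptor, rose by 0.98 ± 0.17 from 3.27 CPM. Since LRP5 and RYK fell while the frizzled receptors named here rose, receptors stand on both sides.

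Surface adhesion genes changed in both directions. Of the 714 genes tested with a cell surface GO term, 162 rose and 216 fell (260 and 152 with library totals). Integrins, the receptors for matrix, fell more often than they rose: of 18 tested, 1 rose and 10 fell (3 and 7 with library totals), with a median of -0.35 (-0.16). ITGA2, a collagen receptor subunit, was at 52.9, 39.9 and 42.2 CPM in shNC and 17.1, 21.6 and 15.2 CPM in shSLC6A8 and fell by 1.32 ± 0.14; ITGB4, the laminin receptor subunit of hemidesmosomes, fell by 0.51 ± 0.07 and ITGA5, the fibronectin receptor subunit, by 0.36 ± 0.05. The subunit that rose was ITGAV (0.40 ± 0.12), and the count of rises became 0 without shNC replicate 2, shNC replicate 3 or shSLC6A8 replicate 2. Cadherins and protocadherins rose more often than they fell, though 29 of 55 were not called: of 55 tested, 21 rose and 5 fell (27 and 3 with library totals), with a median of 0.46 (0.65). Their median level lay in the lowest quintile, where 11.7% of all genes were higher, against 38.2% of this family. Of these, 29 were clustered protocadherins, of which 12 rose and 0 fell. Genes of the alpha cluster share their last exons, as do genes of the gamma cluster, so their reads are not independent. Genes of the beta cluster, which were also counted here, do not share exons in this way. Of the other 26 members, 9 rose and 5 fell. The neural cadherin CDH2 was at 32.5, 26.9 and 27.4 CPM in shNC and 68.0, 71.5 and 65.2 CPM in shSLC6A8 and rose by 1.24 ± 0.08, whereas the epithelial cadherin CDH1 was at 246, 222 and 224 CPM in shNC and 149.9, 156 and 133 CPM in shSLC6A8 and fell by 0.66 ± 0.07. CDH6 and CDH12 rose by 0.87 ± 0.06 and 1.06 ± 0.12, and the planar polarity cadherins CELSR1 and CELSR2 fell by 0.42 ± 0.05 and 0.52 ± 0.12; the call of CELSR2 ended with library totals. VCAM1, the adhesion molecule for leukocytes, rose by 3.59 ± 0.25 from 0.403 to 4.85 CPM.

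Axon guidance genes changed often and in both directions: of 55 tested, 17 rose and 18 fell (23 and 13 with library totals), with a median of -0.02 (0.17). EFNA1, an ephrin ligand that TNF and hypoxia raise, fell from 247 ± 13.3 to 69 ± 6.98 CPM, a log2 fold change of -1.84 ± 0.08. The semaphorin receptors PLXNA2 and PLXND1 fell by 2.24 ± 0.11 and 1.34 ± 0.06, and the ligand SEMA4B by 1.22 ± 0.05. SEMA6C rose from 12.2 ± 0.643 to 34.5 ± 0.353 CPM, and the receptors NRP2, ROBO2 and NEO1, a netrin and RGM receptor, rose by 1.35 ± 0.16, 1.49 ± 0.17 and 1.90 ± 0.18. In the Notch pathway, of 34 tested, 8 rose and 10 fell (12 and 7 with library totals). These shares, 23.5% and 29.4%, stood beside 23% and 20.2% of all genes in their quintile of level. The receptors NOTCH3 and NOTCH2 rose by 1.42 ± 0.10 and 0.71 ± 0.12. The HES-family repressors HES4 and HES6 rose by 1.71 ± 0.30 and 1.12 ± 0.17. The DNA-binding partner RBPJ and the non-canonical ligand DLK1 fell by 0.60 ± 0.06 and 0.92 ± 0.09.

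Endocytic lectins and scavenger receptors fell more often than they rose: of 19 tested, 2 rose and 12 fell (3 and 9 with library totals), with a median of -0.63 (-0.44). ASGR1 and ASGR2, the subunits of the hepatocyte receptor that clears desialylated glycoproteins, both fell. ASGR1 was at 247, 278 and 278 CPM in shNC and 95.4, 78.0 and 100.4 CPM in shSLC6A8 and fell by 1.55 ± 0.09, and ASGR2 fell from 458 ± 25.4 to 195 ± 9.47 CPM. SCARB1, the receptor that takes cholesterol from high-density lipoprotein, was at 199, 206 and 194 CPM in shNC and 67.8, 68.1 and 67.9 CPM in shSLC6A8 and fell by 1.56 ± 0.05, and galectin-1 (LGALS1) fell by 1.12 ± 0.06. The count of rises in this list became 0 without shNC replicate 1, shNC replicate 2 or shNC replicate 3 and 1 without shSLC6A8 replicate 2 or shSLC6A8 replicate 3. The members that rose were CLEC2D, a ligand of a natural killer cell receptor (0.55 ± 0.19), and SCARF2 (0.35 ± 0.12). CLEC2D was not called without shNC replicate 1, shNC replicate 2, shNC replicate 3, shSLC6A8 replicate 2 or shSLC6A8 replicate 3 or with DESeq2, limma-voom, no filter on low counts, the replicate block or thinned counts. SCARF2 was not called without shNC replicate 1, shNC replicate 2, shNC replicate 3 or shSLC6A8 replicate 3.

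Cytokine and TNF receptors fell in 25 of 60 and rose in 13 (17 and 17 with library totals), with a median of -0.21 (-0.01). The decoy TRAIL receptor TNFRSF10D fell from 86.3 ± 1.31 to 23.8 ± 1.76 CPM, and TNFRSF14, the receptor of LIGHT and BTLA, fell by 1.24 ± 0.06. TNFRSF9, the T-cell co-stimulator known as CD137, rose by 1.27 ± 0.10, and ACVR1B, a type I activin receptor, by 0.55 ± 0.07. Of the receptor tyrosine kinases, 5 rose and 6 fell of 20 (7 and 3), and the 2 PDGF receptors parted: PDGFRB fell from 9.81 ± 0.286 to 1.87 ± 0.399 CPM, and PDGFRA rose from 5.50 ± 0.361 to 14.7 ± 0.840 CPM. MERTK, which binds GAS6 and clears dead cells, rose by 1.36 ± 0.12, and ERBB4 by 0.87 ± 0.16, while FGFR4, the liver receptor of FGF19, fell by 0.46 ± 0.05. Of 87 G-protein-coupled receptors, 15 rose and 26 fell (24 and 21). GPR157 fell from 51.4 ± 0.412 to 8.79 ± 0.721 CPM, HCAR3, a receptor for hydroxylated fatty acids, by 2.46 ± 0.16, and the angiotensin receptor AGTR1 by 1.2 ± 0.04, beside the fall of its ligand's precursor. ADGRL3, a latrophilin, rose by 1.61 ± 0.13 and the prostaglandin receptor PTGER4 by 0.66 ± 0.07.

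Membrane carriers other than SLC6A8 also changed. Of 258 solute carriers, 48 rose and 75 fell (92 and 56 with library totals), so their balance followed the scaling; without shSLC6A8 replicate 1, 31 rose. The glutamate transporter SLC1A3 fell by 2.73 ± 0.18, the betaine and GABA transporter SLC6A12, of the same family as SLC6A8, by 2.18 ± 0.13, and the glucose transporter SLC2A1 by 1.11 ± 0.05. SLC43A3, a purine base transporter, fell from 545 ± 10.7 to 193 ± 5.71 CPM. SLC7A5, the large neutral amino acid exchanger, was at 51.8, 52.1 and 49.7 CPM in shNC and 137, 132 and 137 CPM in shSLC6A8 and rose by 1.4 ± 0.05 (adjusted p = 3.96e-08). SLC30A1, which exports zinc, rose by 1.04 ± 0.10, and the phosphate carrier family member SLC17A4 by 3.17 ± 0.31 from 0.379 CPM. Among ABC transporters, 8 of 34 rose and 11 fell (14 and 7), with the rises at 4 without shNC replicate 2. These shares, 23.5% and 32.4%, stood beside 19.9% and 25.5% of all genes in their quintile of level. Potassium channels gave 5 higher and 2 lower of 20 (8 and 2; rises 3 without shNC replicate 2). Among the ABC carriers, the drug pump ABCB1 was at 61.3, 58.7 and 59.7 CPM in shNC and 152, 159 and 139 CPM in shSLC6A8 and rose by 1.33 ± 0.06, and ABCC3, which exports bile acids and glucuronides, fell by 1.45 ± 0.06. Of ion channels other than potassium channels, 10 of 80 rose and 25 fell (19 and 16); the chloride channel ANO1 fell by 1.86 ± 0.07.

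Genes that move proteins into and out of the endoplasmic reticulum fell by small steps with TMM factors. Of 37 genes of the translocon, signal peptidase and oligosaccharyltransferase, 2 rose and 24 fell (5 and 13 with library totals), with a median of -0.29 (-0.10); the rises became 0 without shNC replicate 2 and 1 without shNC replicate 1 or shSLC6A8 replicate 1. The share lower was 64.9%, against 37.6% in the quintile of level in which the list's median lies. TRAM1, a translocating chain protein, was at 209.5, 213 and 199 CPM in shNC and 127, 133 and 120.4 CPM in shSLC6A8 and fell by 0.71 ± 0.05; the oligosaccharyltransferase subunits DDOST and STT3A fell by 0.65 ± 0.05 and 0.57 ± 0.04, and SSR1 of the translocon by 0.51 ± 0.04. Of 58 genes of the COPI and COPII coats and cargo receptors, 2 rose and 31 fell (14 and 13), a balance that rested on the scaling, with a median of -0.22 (-0.03); the rises became 0 without shNC replicate 2 or shNC replicate 3 and 1 without shNC replicate 1 or shSLC6A8 replicate 1. The share lower in the coat list was 53.4%, against 37.6% in its quintile of level. RAB GTPases gave 9 higher and 14 lower of 52 (21 and 8), and the rises were 5 without shNC replicate 1. Their shares, 17.3% higher and 26.9% lower, were near the 19.9% and 25.5% of all genes in their quintile of level. The cargo receptor TMED10 was at 284, 273 and 276 CPM in shNC and 154, 158 and 157 CPM in shSLC6A8 and fell by 0.83 ± 0.04, ARF1, the GTPase that recruits COPI, fell by 0.81 ± 0.05, and KDELR3, which returns resident proteins to the endoplasmic reticulum, by 1.08 ± 0.09.

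Of 1027 transcription regulators by GO term, 239 rose and 166 fell (493 and 87), with a median of 0.08 (0.27). Their share higher, 23.3%, was near the 23% of all genes in the quintile of level that holds their median, and their share lower was 16.2% beside 20.2%. ETS factors fell more often than they rose: of 19 tested, 1 rose and 11 fell (5 and 9 with library totals), with a median of -0.43 (-0.24). ETS2 (ENSG00000157557, chromosome 21, 38805183 to 38824955), a target of growth factor signalling, was at 308, 314 and 305 CPM in shNC and 81.2, 83.1 and 82.1 CPM in shSLC6A8 and fell by 1.91 ± 0.04 (adjusted p = 3.9e-09). The epithelial members EHF, ELF4 and ELF3 fell by 0.78 ± 0.07, 0.58 ± 0.08 and 0.47 ± 0.05, and the member that rose was ELK3 (0.27 ± 0.08), a call that ended without shNC replicate 2 or shNC replicate 3. Forkhead factors fell in 10 of 21 and rose in 3 (6 and 6), with a median of -0.27 (-0.08): FOXN2 fell by 1.43 ± 0.11, FOXP2 by 0.99 ± 0.13 and FOXO1, which drives gluconeogenic genes, by 0.68 ± 0.07, while FOXC1 rose by 0.92 ± 0.22; rises became 1 without shNC replicate 3 or shSLC6A8 replicate 1. Nuclear receptors fell in 13 of 34 and rose in 5 (11 higher and 8 lower with library totals), and the rises became 2 without shNC replicate 2, shNC replicate 3 or shSLC6A8 replicate 1 and 3 without shSLC6A8 replicate 2. The bile acid receptor NR1H4 fell from 10.8 ± 0.595 to 4.76 ± 0.398 CPM, PPARG, a lipid sensor, from 136 ± 6.80 to 69.1 ± 1.29 CPM, and the clock receptors NR1D1 and RORA by 1.05 ± 0.11 and 0.95 ± 0.09. The estrogen-related receptor ESRRG, which drives oxidative genes, rose by 1.16 ± 0.16.

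The inhibitors of DNA binding, short HLH proteins that hold back bHLH activators, did not all move alike. ID1 was at 126, 125 and 147 CPM in shNC and 274, 293 and 364 CPM in shSLC6A8 and rose by 1.22 ± 0.11 (adjusted p = 1.81e-05). ID4 was at 2.14, 1.76 and 1.69 CPM in shNC and 14.6, 14 and 14.1 CPM in shSLC6A8 and rose by 2.93 ± 0.13 (adjusted p = 1.08e-07). ID3 rose as given above. ID2 was at 283, 298 and 296 CPM in shNC and 187, 188 and 204 CPM in shSLC6A8 and fell by 0.60 ± 0.05 (adjusted p = 1.2e-05), so ID1, ID3 and ID4 lay above the controls in every library and ID2 below. The inhibitory SMAD6 was at 8.71, 7.94 and 8.55 CPM in shNC and 24.5, 26.0 and 25.1 CPM in shSLC6A8. SMAD6 rose by 1.59 ± 0.08, and SMAD3 fell by 0.54 ± 0.06. The ID genes belong to a list of bHLH repressors of which 10 of 33 rose and 8 fell (14 and 7). The clock factor NPAS2 and the glucose-responsive partner MLX, of the same list, fell by 0.88 ± 0.08 and 0.91 ± 0.06, and MXD4, a MYC antagonist, rose by 0.80 ± 0.05. Of STAT, IRF, SOCS and SMAD regulators, 13 of 41 rose and 10 fell (18 and 4): STAT4 rose by 1.69 ± 0.17 and SOCS2, a feedback inhibitor of growth hormone signalling, by 1.70 ± 0.15, while STAT5B and IRF9 fell by 0.40 ± 0.07 and 0.47 ± 0.08.

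**Figure D4:**
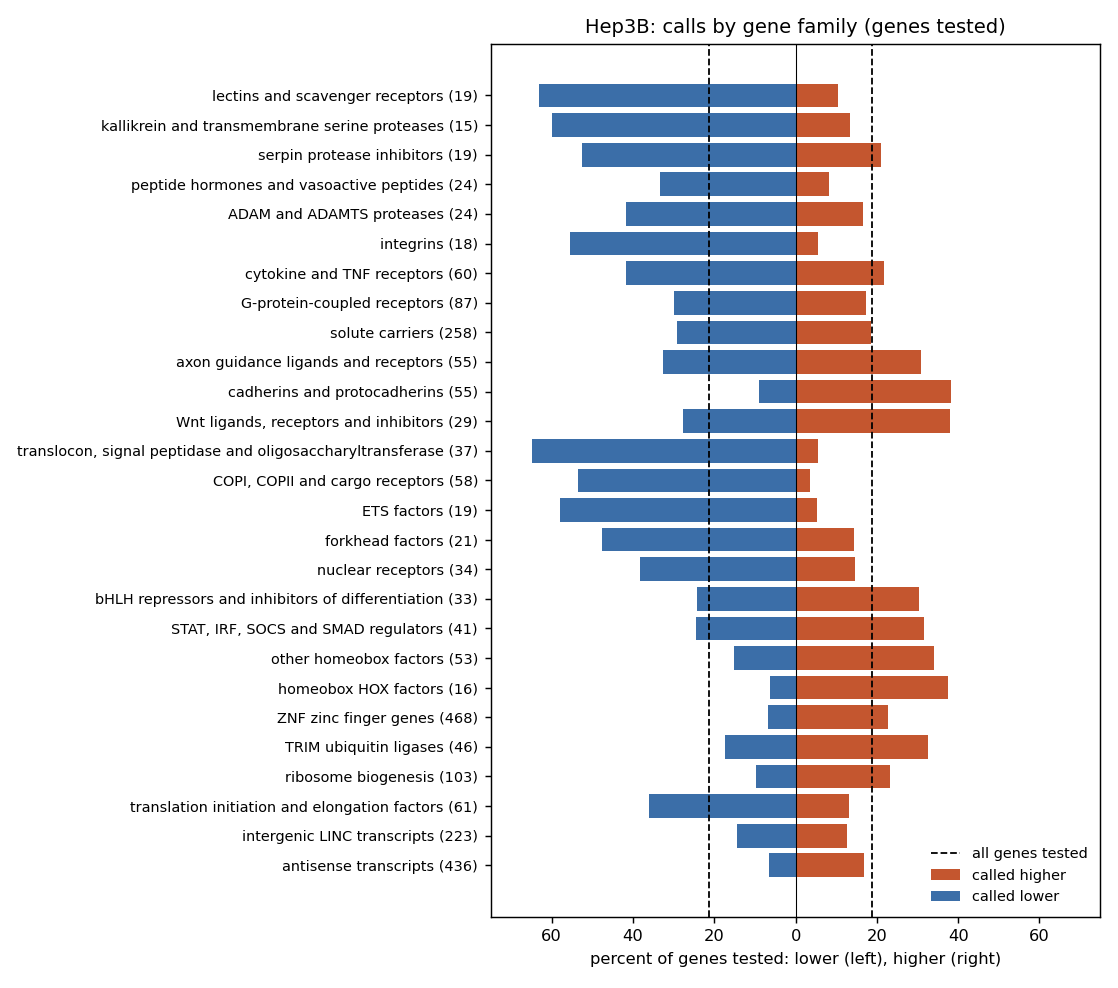
Percent of the tested genes of 27 families called higher (right) or lower (left) in shSLC6A8, with the number tested in brackets and dashed lines at the shares over all genes tested (18.9% higher, 21.2% lower). ETS factors, integrins, lectins, translocon and coat genes reach far past the lower line; cadherins, HOX and other homeobox factors past the higher line. The lines are not matched for level: in the highest quintile, which holds the median level of the translocon and coat lists, 37.6% of all genes were lower. All calls use TMM factors.

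Factors of body plan and lineage are given by family. Of the HOX genes, of 16 tested, 6 rose and 1 fell (8 and 1 with library totals; falls 2 without shNC replicate 2 or shSLC6A8 replicate 3), with a median of 0.38 (0.57); HOXA11, HOXA10, HOXA7 and HOXA3 rose by 1.43 ± 0.20, 0.68 ± 0.08, 0.64 ± 0.08 and 0.64 ± 0.08, and HOXD1 fell by 0.86 ± 0.08. The named HOX genes that rose lie in the HOXA cluster. Naming stopped at 4 per direction while 6 rose, so this does not describe every HOX gene that rose. Other homeobox factors rose in 18 of 53 and fell in 8 (28 and 4). CUX2, a factor of cortical neurons, was at 3.40, 2.73 and 4.25 CPM in shNC and 26.3, 27.9 and 24.6 CPM in shSLC6A8 and rose by 2.93 ± 0.14 (adjusted p = 1.85e-07); SATB1, a chromatin organiser, rose by 1.0 ± 0.11, and IRX3 fell by 1.0 ± 0.08. Of 8 SOX factors, 4 rose and 0 fell (6 and 0), with SOX12, SOX18, SOX5 and SOX4 higher by 0.96 ± 0.09, 0.77 ± 0.20, 0.78 ± 0.16 and 0.49 ± 0.05. GATA6 rose from 14.6 ± 0.254 to 34.4 ± 0.822 CPM, GATA3 by 1.0 ± 0.13, GATA4 by 0.38 ± 0.06 and TBX2 by 1.59 ± 0.10. In their whole list of GATA, TBX and related factors, though, 6 of 27 rose and 6 fell (9 and 2), with the falls at 3 without shNC replicate 1, shNC replicate 3 or shSLC6A8 replicate 1. KLF2, a flow-responsive factor of endothelium, rose by 2.11 ± 0.33 from 1.28 CPM, within a KLF and SP family of which 5 of 20 rose and 5 fell (7 and 2), with the rises at 2 without shNC replicate 2 and 3 without shSLC6A8 replicate 3. Among bZIP factors, 9 of 40 rose and 14 fell (12 and 8). These shares, 22.5% and 35.0%, stood beside 19.9% and 25.5% of all genes in their quintile of level. NFIL3, HLF, MAFF and MAFK fell by 1.06 ± 0.07, 1.11 ± 0.09, 1.01 ± 0.07 and 0.84 ± 0.05, and MAF and BACH2 rose by 0.73 ± 0.09 and 0.95 ± 0.14.

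The ZNF genes, mostly KRAB-type repressors of repeats, rose more often than they fell. Of 468 tested, 106 rose and 32 fell (251 and 11), with a median of 0.14 (0.34). The share higher, 22.6%, was close to the 23% of all genes in the quintile that holds their median level, and the share lower, 6.8%, stood beside 20.2% there; the falls were 20 without shSLC6A8 replicate 1. ZNF618 and ZNF428 rose by 1.33 ± 0.14 and 1.06 ± 0.13, and ZNF410, known for its control of CHD4, fell by 1.03 ± 0.08. Chromatin writers and erasers gave 22 higher and 18 lower of 116 (58 and 7), with HDAC11, a fatty-acid deacylase, lower by 1.28 ± 0.07, the Polycomb readers CBX6 lower by 1.23 ± 0.09 and CBX2 higher by 0.74 ± 0.05. The shares of this list, 19.0% higher and 15.5% lower, stood beside 18.9% and 21.2% of all genes tested.

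Signal regulators inside the cell changed in both directions. RAC2, the haematopoietic RAC, fell by 1.87 ± 0.22, and ARHGAP42 and CDC42EP2 rose by 1.25 ± 0.13 and 1.25 ± 0.18. Of RGS and other G-protein regulators, 9 of 60 rose and 15 fell (24 and 10; rises 5 without shNC replicate 2): RGS10 and RGS2 fell by 1.75 ± 0.24 and 0.91 ± 0.07, soluble adenylyl cyclase ADCY10 by 1.30 ± 0.07, and the arrestin-domain genes ARRDC2 and ARRDC3 by 1.39 ± 0.13 and 1.23 ± 0.09, in the direction opposite to their relative TXNIP. The phosphodiesterase PDE3A rose by 2.11 ± 0.26. AKAP12, a scaffold for protein kinase A, was at 319, 282 and 269.6 CPM in shNC and 37.5, 45.3 and 34.9 CPM in shSLC6A8 and fell by 2.89 ± 0.10. ZFP36L1 and ZFP36, which send AU-rich mRNAs to decay, fell by 1.32 ± 0.07 and 0.70 ± 0.07, while the microRNA processors DROSHA and DGCR8 rose by 0.37 ± 0.06 and 0.46 ± 0.06. TRIM ubiquitin ligases gave 15 higher and 8 lower of 46 (22 and 1; rises 7 without shNC replicate 2 and 9 without shNC replicate 3 or shSLC6A8 replicate 1; falls 5 without shNC replicate 2, shNC replicate 3, shSLC6A8 replicate 1 or shSLC6A8 replicate 3).

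Among intracellular families, actin and motor genes changed in both directions. The unconventional myosin MYO1C fell from 348 ± 1.10 to 98.5 ± 4.0 CPM, by 1.82 ± 0.05 on the log2 scale; TPM4 and ACTN1 fell by 0.83 ± 0.04 and 0.77 ± 0.05 beside ACTB, while DBN1 rose by 0.75 ± 0.05 beside FSCN1, and the neuronal kinesin KIF5C rose by 2.43 ± 0.15. Of 103 ribosome biogenesis genes, 24 rose and 10 fell (70 and 3; rises 13 without shSLC6A8 replicate 1 and 14 without shNC replicate 2); in the quintile of level that holds their median 19.9% of all genes were higher and 25.5% lower, against 23.3% and 9.7% of the list. The chaperonin and prefoldin list had 5 of 16 higher and 0 lower (10 and 0; rises 2 without shSLC6A8 replicate 1 and 3 without shNC replicate 1, shNC replicate 2, shNC replicate 3 or shSLC6A8 replicate 3 and 8 without shSLC6A8 replicate 2), with CCT2, CCT3 and TCP1 higher by 0.21 ± 0.05, 0.18 ± 0.05 and 0.22 ± 0.05. CCT2 was not called without shNC replicate 2 or shSLC6A8 replicate 1. CCT3 was not called without shNC replicate 1, shNC replicate 3, shSLC6A8 replicate 1 or shSLC6A8 replicate 3. Of 61 translation factors, 8 rose and 22 fell (25 and 7; rises 4 without shNC replicate 2 and 5 without shNC replicate 3), and their share lower, 36.1%, was near the 37.6% of all genes in their quintile of level. Among liver enzymes, HAL, which deaminates histidine, fell from 141 ± 4.67 to 15.1 ± 1.17 CPM, CYP2B6, a drug-oxidising cytochrome P450, from 37.4 ± 1.87 to 2.97 ± 0.313 CPM, PEMT, which methylates phosphatidylethanolamine, by 1.54 ± 0.08 and ALDH4A1 of proline breakdown by 1.66 ± 0.06. FMO1, a flavin monooxygenase, and UGT2B15, which glucuronidates androgens, rose by 1.71 ± 0.12 and 2.64 ± 0.21; UGT2B genes are close paralogs, so their reads may be shared.

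Long non-coding RNAs gave 228 higher and 133 lower of 1782 (441 and 90 with library totals; 148 higher without shSLC6A8 replicate 1), beside 2716 and 3179 of 13329 coding genes (5564 and 1781). Their median log2 CPM was 0.62, against 4.76 for coding genes. The shares of long non-coding RNAs, 12.8% higher and 7.5% lower, were near those of all genes in the lowest quintile, which holds their median level. There 11.7% were higher and 7.66% lower. Intergenic LINC transcripts gave 28 higher and 32 lower of 223 (51 and 25; rises 16 without shNC replicate 2 and 17 without shSLC6A8 replicate 1), and antisense transcripts 73 higher and 28 lower of 436 (129 and 19). Both lists also have their median level in the lowest quintile. Of the LINC transcripts 12.6% were higher and 14.3% lower, and of the antisense transcripts 16.7% and 6.4%. LINC01671 was at 24.6, 21.3 and 22.6 CPM in shNC and 6.28, 7.41 and 6.08 CPM in shSLC6A8 and fell by 1.79 ± 0.10, and LINC02943 and NPSR1-AS1 fell by 2.51 ± 0.21 and 2.76 ± 0.23. LINC02701, LINC00863 and VASH1-AS1 rose by 1.4 ± 0.12, 1.80 ± 0.43 and 1.31 ± 0.16; the call of LINC00863 ended without shSLC6A8 replicate 2 or shSLC6A8 replicate 3 and with no filter on low counts. Small nucleolar RNA host genes gave 3 higher and 3 lower of 26 (9 and 1; rises 7 without shSLC6A8 replicate 2; falls 1 without shNC replicate 1, shNC replicate 2 or shSLC6A8 replicate 1). Of 29 microRNA host genes 2 rose and 4 fell (3 and 1; rises 1 without shNC replicate 1, shNC replicate 2, shNC replicate 3 or shSLC6A8 replicate 2; falls 2 without shNC replicate 1, shSLC6A8 replicate 1 or shSLC6A8 replicate 3). MIR30DHG and MIR34AHG fell by 0.56 ± 0.18 and 0.52 ± 0.10, and MIR22HG rose by 0.28 ± 0.08. MIR30DHG was not called without shNC replicate 1, shNC replicate 3, shSLC6A8 replicate 1 or shSLC6A8 replicate 3 or with library totals. MIR22HG was not called without shNC replicate 1, shNC replicate 2, shNC replicate 3 or shSLC6A8 replicate 2 or with DESeq2. Mature microRNAs were not measured. The 7SK RNA, RN7SK, which holds the elongation factor P-TEFb inactive, rose by 0.89 ± 0.22.

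Antisense transcripts could be set beside the gene they are named for in 383 pairs tested on both sides. In 88 pairs the antisense transcript was called, and in 49 of these (55.7%) the partner was called too, beside 124 of the 295 pairs (42.0%) whose antisense transcript was not called. Of the 49, 20 pairs rose together, 13 fell together, 16 had a higher antisense transcript with a lower partner, and 0 had the reverse. TNFRSF14-AS1 fell with TNFRSF14, at 99.5, 104 and 93.8 CPM in shNC and 30.3, 32.8 and 29.1 CPM in shSLC6A8, a log2 fold change of -1.69 ± 0.07. GATA6-AS1 rose with GATA6, at 3.45, 3.05 and 2.92 CPM in shNC and 12.2, 9.33 and 11.6 CPM in shSLC6A8, a log2 fold change of 1.81 ± 0.14. The pairs GATA3-AS1 and TBX2-AS1 with GATA3 and TBX2 also rose together, with antisense log2 fold changes of 2.12 and 1.36; they were named after their values were seen. Whether reads were counted by strand is not given in the sources used here, so reads of a gene and its antisense partner cannot be told apart.

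**Figure D5:**
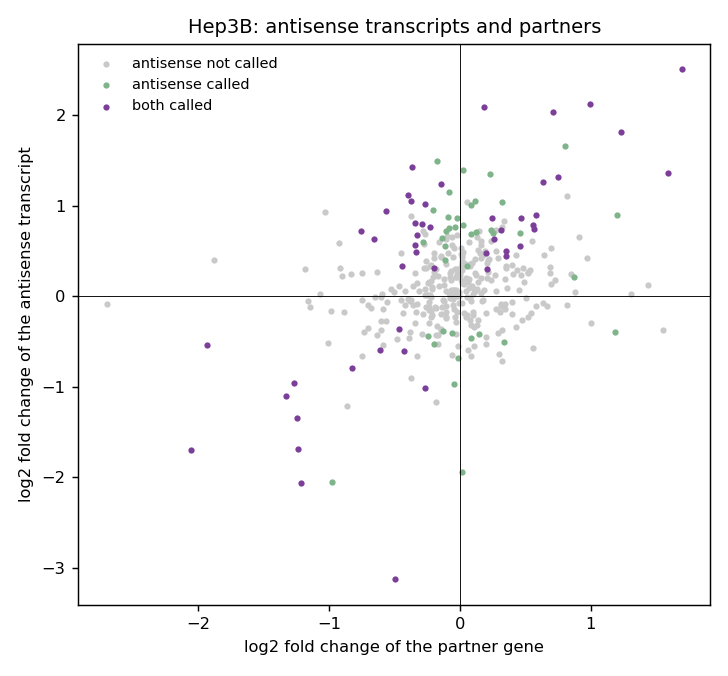
Each point is an antisense transcript, with the log2 fold change of its partner gene on the horizontal axis and its own on the vertical axis, for the 383 pairs tested. Of the 49 pairs with both called, 33 lie in the quadrants of like sign and 16 in the quadrant of a higher antisense transcript and a lower partner; the opposite quadrant holds 0 pairs with both called.

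2 genes were listed at 0 counts in all 3 control libraries. EXOSC6, a subunit of the RNA exosome, had 24, 198 and 226 counts in the knockdown libraries, and ENSG00000259952, a long non-coding record, had 38, 204 and 232. With a floor of 3 counts over the control group these are at least 115-fold and at least 121-fold higher, for counting error only, and the knockdown replicates differ widely. Their adjusted p was 0.00411 and 0.0021, and without shSLC6A8 replicate 2 it was 0.257 and 0.199; EXOSC6 was also not called without shNC replicate 1 (0.0615). An exosome subunit is used by every cell, and whether the authors' counting divided its reads with another record is not given, so a listed 0 is not read as absence.

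Shares by chromosome followed the scaling. On chromosome 22, 30.5% of 397 genes were lower and 13.4% higher (67 lower and 99 higher with library totals), with a median log2 fold change of -0.11 (0.08 with library totals); leaving out any 1 library left the median between -0.12 and -0.10. On chromosome 13, 24.7% of 247 genes were lower and 8.91% higher (30 lower and 64 higher with library totals). On chromosomes 7 and 9, 24.2% of the genes of each were higher, and on chromosome 11 23.7%, beside 18.9% of all genes tested. With library totals 349, 291 and 378 genes of these 3 chromosomes were higher and 59, 62 and 118 lower. Under both scalings the median of chromosome 22 was the lowest of chromosomes 1 to 22 and X. Of the 17 mitochondrial genes tested, 1 rose and 11 fell (2 and 7), with a median of -0.37 (-0.18).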

How the data were processed

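Messenger RNA of Hep3B was sequenced in 6 libraries, 3 for each hairpin; the other 6 libraries of the series, from another line, were not analysed here. Per the labels' protocols, extraction used the RNAfast-2000 kit, and 1.3 µg of total RNA went into each SMARTer library. The submitters' processing notes name GRCh38.p14; aligner, counter, annotation and strand setting were not given in the sources used here. For every gene and library the authors deposited, per the file headers, 1 estimated count and 1 TPM value, and a gene length in another column of that table; 13.5% to 15.1% of the count values have a decimal part. The deposited TPM values, scaled for length and depth and summing to 998190 to 998473, were used for markers alone. Other columns of sample values numbered 0.

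Groups came from the labels. Estimated counts were rounded, filtered by filterByExpr (16181 of 62703 genes kept), scaled by TMM and tested in R 4.3.3 by edgeR 4.0.16 (robust quasi-likelihood F test), with no covariate and Benjamini-Hochberg adjusted p under 0.05. SE is the absolute log2 fold change over the root of F, an approximation. A prior count of 2 entered log2 CPM. The biological coefficient of variation was 7.77%. Families came from symbol patterns and member lists, gene types from GENCODE v29 by Ensembl identifier, GO terms from the deposited table, and positions and promoters from RefSeq. The members and lists were chosen with earlier results of these data known, and list patterns were corrected after the data were seen. Lists are described by counts and medians, not tested. Apart from SLC6A8, the markers and genes said to be named after their values were seen, named genes were called, did not overlap between groups and averaged at least 1 in log2 CPM; they were the 15 largest changes per direction, the 10 largest CPM changes per direction, up to 4 per list and direction by adjusted p, and the 10 largest per direction among non-coding, regulator, secreted and surface genes; this gave 541 genes, of which 302 are not named, for length or because some items are not reported here. Intervals and floors (3 counts over a group) cover counting error only.

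Alternatives were DESeq2 1.42.0, limma-voom (limma 3.58.1), DESeq2 size factors, library totals, no filter beyond 1 count, a filter of 1 CPM in 3 libraries, a replicate block, thinning, removal of a length trend (loess span 0.5) and leaving out each library. On simulated counts of this comparison over 16181 genes, edgeR called 82.7% of 98 genes changed by a fold of 2, 60.6% of 99 changed by a fold of 1.5 and 0.121% of 15981 unchanged genes. Far fewer genes were changed there than the 40.1% called in the data, with rises and falls balanced. These rates therefore need not hold for the data. Every pair of replicates differed beyond sampling noise (chi-square per degree of freedom 2.69 to 14.98).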

Additional observations from a re-analysis of the deposited data

How the results depend on the processing

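Across 15 other settings, 3550 of 3614 recomputed values of 241 genes named in the text kept their direction and their side of the threshold, 64 kept the direction but passed the threshold no longer, and 0 reversed. Over all 541 genes that the naming rule gave, 187 of 8114 values no longer passed and 1 reversed, and 59 genes lost the call in at least 1 setting. The setting that moved the overall counts was scaling by library totals, with 6230 genes higher and 1941 lower against 3061 and 3427; with it, 8 of 69 lists had more members lower than higher against 40, and 1 chromosome had a median below 0 against 9. With no filter on low counts, 5 chromosomes had one. Leaving out 1 library gave 4905 to 6513 genes called, 2163 to 3039 higher and 2738 to 3474 lower, 38 to 44 such lists and 8 to 13 such chromosomes. DESeq2 called 2783 genes higher and 3294 lower.

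The labels do not say whether same-numbered libraries of the 2 hairpins share a source. Such libraries had correlations of -0.109, -0.154 and 0.275 in their deviations from the group means. Pairs of unlike number ran from -0.37 to 0.438, the highest being shNC replicate 1 with shSLC6A8 replicate 2. With 3 libraries per group these values cannot decide whether any libraries share a source. With the replicate number as a block, 6221 genes were called, 2936 higher and 3285 lower, with 39 such lists and 10 such chromosomes.

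Of 2400 recomputed list counts, 218 moved by over 1.5 times, 97 of them with library totals. Without a filter HES4 had an adjusted p of 0.07. In simulated counts at this depth 60.6% of changes by a fold of 1.5 were called, so a gene not called is not shown to be unchanged. The scaling limits every statement on the balance of rises and falls in a family.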
